A study of Mus musculus with 6 samples.

Results

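The 10 genes described here belong to the B cell programme, and their RNA was followed in plasmacytoid dendritic cells (pDCs) and Sirpa+ dendritic cells (DCs) sorted from the mouse thymus. They were chosen by gene symbol, 10 of the 23420 symbols in the count files, with earlier results of these data known. Cd79a, Cd79b, Ms4a1 and Fcrla were grouped as parts of the B cell receptor and its partners. Blnk and Bank1 are adaptors of receptor signalling, Ebf1, Pax5 and Pou2af1 are B-lineage transcription regulators, and Dntt is a DNA polymerase. The study sorted 3 groups of 2 libraries from wild type mice. YG+ pDCs (CD11c low, B220+) carried yellow-green (YG) microspheres and came from mice with subcutaneous tumours of MC38, a mouse colon carcinoma line, in which the microspheres had been injected into the tumour after 12 days of growth and thymic cells were isolated 2 days later. PBS pDCs (CD11c low, B220+) and PBS Sirpa+ DCs (CD11c high, Sirpa+, a conventional DC subset) came from mice given PBS, labelled as 2 weeks. Between the 2 pDC groups, the tumour, the microspheres and the YG gate differ at once and cannot be told apart. Strain, age and sex are not given in the labels. They do not say if replicate libraries stem from different mice, so p-values measure the spread of these libraries alone, and that spread may be technical.

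In B cells, the Cd79a and Cd79b chains carry the signal of the surface immunoglobulin into the cell, where kinases act on the adaptor Blnk. The programme is set up during B cell development by the transcription factors Ebf1 and Pax5. pDCs are interferon-producing cells that depend on the E protein Tcf4, and they are known to share some lymphoid genes with early B cells. B220, used here to gate the pDCs, is an isoform of Ptprc that B cells carry too, so B220 by itself does not part pDCs from B cells. The gate also asked for low CD11c, and how far the whole gate left out B cells was not tested.

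Few reads fell in genes. Gene totals ran from 177844 to 713966 counts, which were 0.842% to 3.36% of the uniquely placed reads, and PBS pDC replicate 1 had both the lowest total and the lowest share. No source used here says on which strand genes were counted. Tsix, the antisense partner of Xist, had 3974 to 8102 counts against 352 to 2487 for Xist and exceeded it in 6 of 6 libraries (a pair chosen after its values were seen). Whether the gene counts below, the members' included, are of sense or opposite-strand reads, and the part of this in the low share, was not tested. PBS pDC replicate 1 also stood apart, since its log2 normalised counts correlated with those of its group partner at r = 0.726 across genes, which are not independent replicates, against 0.934 within the YG+ pDCs and 0.855 within the Sirpa+ DCs. Levels are given as normalised counts (CPM, counts scaled to library size), as mean ± SD of 2 libraries unless a library is named. A count of 0 allowed up to 4.21 to 19.1 CPM in a library (3 counts), and that limit covers counting error only. The pDC markers followed the labels, and those of Sirpa+ DCs did so in part. All 12 genes of the pDC marker list, among them Siglech, Bst2 and Ccr9, were called higher in PBS pDCs than in Sirpa+ DCs (edgeR, adjusted p under 0.05). That test called 4.54% of all 8141 tested genes higher and 6.89% lower. The marker lists were chosen with earlier results of these data known, and Ly6d, at 0 in Sirpa+ DCs, passed the filter through the pDC libraries alone. The count of 12 therefore describes the list and is not independent support. Of 8 markers of Sirpa+ DCs, 3 were called lower in PBS pDCs (Mgl2, Fscn1 and H2-Eb1). Clec10a was called higher, and 4 were not called, among them Sirpa itself (259 ± 86.0 against 662 ± 122 CPM). The class II gene H2-Eb1 was at 6416 ± 1306 CPM in Sirpa+ DCs against 1183 ± 176 CPM in PBS pDCs. In bulk samples such as these, fewer cells of a type and less RNA per cell cannot be told apart.

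Upstream sequences were available from RefSeq (GRCm38.p6) for 8 of the 10 genes, in 9 windows of the 250 bases before an annotated start. Because the members were high together in pDCs, these windows were searched on both strands for 4 motifs of the factors that act in this programme, and the sequences below are those with a match, shown 5′ to 3′ in the direction of transcription and, for Cd79a and Blnk, cut to bases outside annotated exons or to the match itself. Capitals mark CACCTG (or its complement CAGGTG), an E-box bound by E proteins, CCCNNGGG, the core recognised by Ebf1, and ATGCAAAT (or its complement ATTTGCAT), the octamer bound by Oct factors with Pou2af1 as their co-activator.
Fcrla, chr1:170927584-170927833, minus strand: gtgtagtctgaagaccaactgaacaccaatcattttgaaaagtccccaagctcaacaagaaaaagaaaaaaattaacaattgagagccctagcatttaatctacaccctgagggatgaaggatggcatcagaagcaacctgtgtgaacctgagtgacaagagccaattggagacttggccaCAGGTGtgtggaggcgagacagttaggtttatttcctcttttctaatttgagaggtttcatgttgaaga
Bank1, chr3:136326067-136326316, minus strand: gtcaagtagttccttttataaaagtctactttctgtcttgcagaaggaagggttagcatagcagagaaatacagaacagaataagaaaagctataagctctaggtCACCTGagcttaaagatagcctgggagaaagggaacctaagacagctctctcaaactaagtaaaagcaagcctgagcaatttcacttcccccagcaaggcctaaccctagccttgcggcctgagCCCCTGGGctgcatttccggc
Cd79a, chr7:24897247-24897380, plus strand: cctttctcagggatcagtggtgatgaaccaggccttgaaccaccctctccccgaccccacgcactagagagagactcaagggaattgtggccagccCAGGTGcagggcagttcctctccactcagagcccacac
Blnk, chr19:40994334-40994361, minus strand: actggaagggATTTGCATgcccaataag
CACCTG was found in 4 of the 9 windows (Bank1, Blnk, Cd79a and Fcrla) and in 17.2% of all 32851 promoter windows of the same length. The CACCTG match of Blnk lies outside the bases shown. CCCNNGGG was found in 1 window (Bank1), against 11.8% of all windows, and the octamer in 1 (Blnk), against 1.6%. CAGCTG, another E-box, was in 0 of the 9 windows and in 13% of all. No matches overlapped in the sequences shown. A match describes these letters and is not evidence of a bound site.

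In the pDCs of PBS mice, the members stood far above the Sirpa+ DCs. Ms4a1, Bank1, Pou2af1, Dntt and Pax5 had no count in either Sirpa+ DC library and were present in every pDC library, and Fcrla, Cd79a, Cd79b and Blnk held 11.6 to 56.8 times as many pooled counts, scaled to library size, in PBS pDCs. Of the 10 members, 9 passed the filter on low counts and 9 were called higher by edgeR's quasi-likelihood test (adjusted p under 0.05), a test that called 4.54% of 8141 genes higher and 6.89% lower. Ebf1 did not pass the filter. All 10 members lay higher in both PBS pDC libraries than in both Sirpa+ DC libraries, where 22.9% of the tested genes did. Those at 0 in Sirpa+ DCs passed the filter through the pDC libraries alone, so the count of 9 describes the members and is not independent support. The median log2 fold change of these 9 genes was 7.45, or 4.27 with those at 0 in Sirpa+ DCs set to their lower bound, beside a median of 0.08 over all tested genes. Leaving out Sirpa+ DC replicate 2, the deeper of that group, left 5 calls and lost Cd79a, Bank1, Blnk and Pax5, whose adjusted p then ran from 0.0529 to 0.0664 (edgeR).

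**Figure D1:**
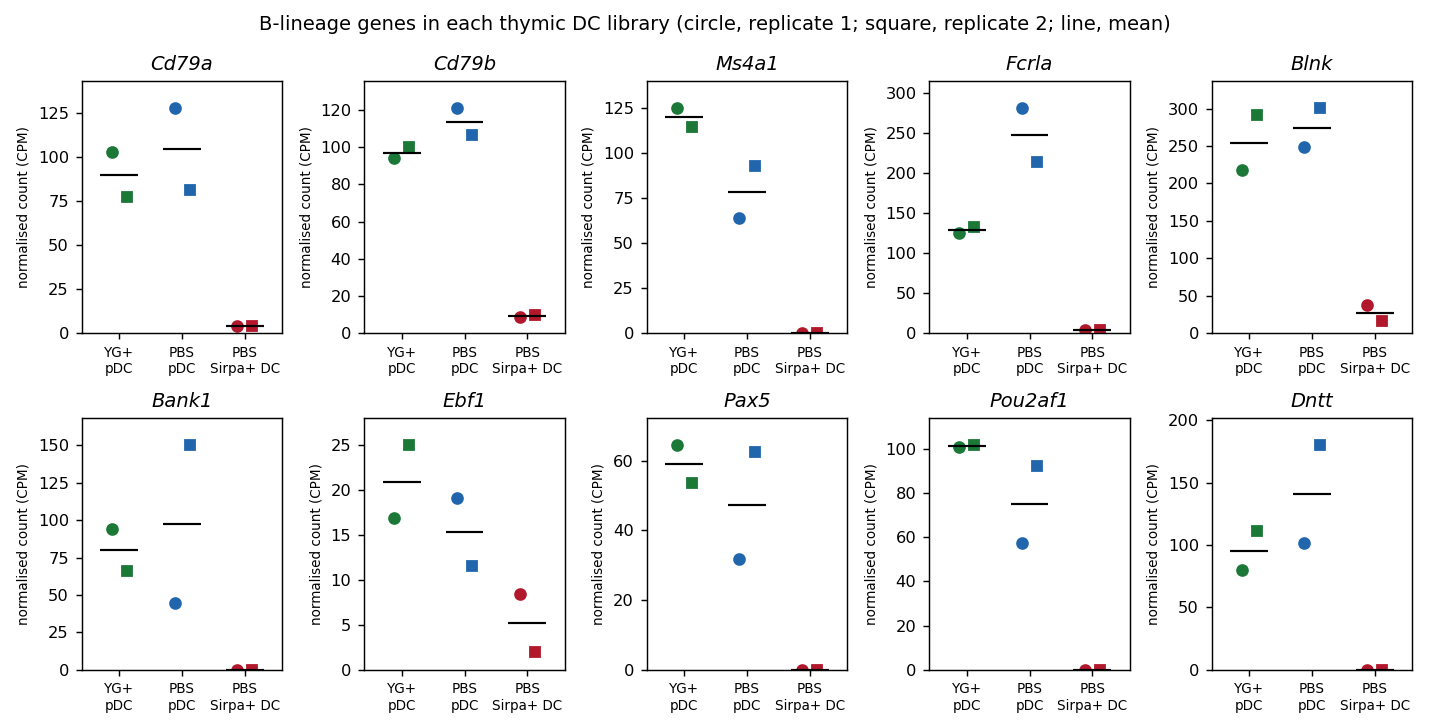
Normalised counts (CPM, linear axes from 0) of the 10 B-lineage genes in each of the 6 libraries, with circles for replicate 1, squares for replicate 2 and a line at the group mean. Each gene lies higher in all 4 pDC libraries than in both Sirpa+ DC libraries, while the YG+ and PBS pDC points overlap for 6 of the 10 genes. Fcrla lies at 125 and 132 CPM in YG+ pDCs against 281 and 213 CPM in PBS pDCs.

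Cd79a and Cd79b encode the Igα and Igβ signalling chains of the B cell receptor. Cd79a (chromosome 7, 24897381 to 24902197, plus strand, GRCm38) was at 128 and 81.0 CPM in the PBS pDC libraries, 103 and 76.9 CPM in the YG+ pDC libraries and 4.23 and 3.99 CPM in the Sirpa+ DC libraries. The pDC groups overlapped, and both lay above the Sirpa+ DCs, which held 3 counts in all. The ratio of pooled counts was 23.0 for PBS pDCs over Sirpa+ DCs, with a 95% counting interval of 7.46 to 115 (adjusted p = 0.00214, edgeR). Cd79b (chromosome 11, 106311341 to 106314762, minus strand) was at 121 and 106 CPM in PBS pDCs, 94.1 and 100.2 CPM in YG+ pDCs and 8.46 and 9.97 CPM in Sirpa+ DCs. Its values were close within each group, and the higher PBS pDC value was 1.14 times the lower. Cd79b was higher in PBS pDCs than in Sirpa+ DCs by 3.54 on the log2 scale (SE 0.54, edgeR adjusted p = 0.00240).

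Ms4a1 encodes CD20, a membrane protein of B cells from the pre-B stage on. It lies on chromosome 19 (11249675 to 11266241, minus strand) and was at 63.8 and 92.6 CPM in PBS pDCs, 125 and 115 CPM in YG+ pDCs and 0 in both Sirpa+ DC libraries. Both YG+ pDC libraries lay above both PBS pDC libraries. Against the limit that 0 counts over the Sirpa+ DC group allow, the mean of Ms4a1 was at least 19.2-fold higher in PBS pDCs (adjusted p = 0.00156, edgeR). Such bounds, here and below, use the pDC mean and do not cover the spread of the pDC libraries. Fcrla encodes an intracellular Fc receptor-like protein of B cells, known to bind immunoglobulin in human cells. It lies on chromosome 1 (170917576 to 170927583, minus strand) and was at 281 and 213 CPM in PBS pDCs, 125 and 132 CPM in YG+ pDCs and 4.23 and 3.99 CPM in Sirpa+ DCs. Here the order of the pDC groups was the opposite of that of Ms4a1, with both PBS pDC libraries above both YG+ pDC libraries. PBS pDCs held 56.8 times the pooled counts of Sirpa+ DCs (95% counting interval 19.0 to 279, adjusted p = 7.81e-04, edgeR).

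The adaptors of the receptor pathway were both present in pDCs. Blnk, which links the kinase Syk to the phospholipase Plcg2, lies on chromosome 19 (40928927 to 40994535, minus strand). Its level was 249 and 301 CPM in PBS pDCs, 218 and 292 CPM in YG+ pDCs and 38.1 and 15.9 CPM in Sirpa+ DCs. It was the member with the most counts in Sirpa+ DCs, 17 over both libraries, and the pDC groups overlapped. PBS pDCs exceeded Sirpa+ DCs by 3.46 on the log2 scale (SE 0.53, edgeR adjusted p = 0.00270). Bank1, a scaffold of calcium signalling downstream of the B cell receptor, lies on chromosome 3 (136053363 to 136326066, minus strand). It was at 44.6 and 150.4 CPM in PBS pDCs, from 7 and 65 counts, at 94.1 and 66.2 CPM in YG+ pDCs and at 0 in both Sirpa+ DC libraries. The PBS pDC libraries enclosed the YG+ pDC values and differed 3.37-fold from each other, more than for any other member in either pDC group. Bank1 was at least 24.0-fold higher in PBS pDCs than in Sirpa+ DCs (adjusted p = 0.00318, edgeR).

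Ebf1, the factor that commits progenitors to the B lineage, was the member with the fewest counts. It lies on chromosome 11 (44617317 to 45008091, plus strand) and had 3 and 5 counts in PBS pDCs (19.1 and 11.6 CPM), 12 and 14 counts in YG+ pDCs (16.9 and 25.1 CPM) and 2 and 1 counts in Sirpa+ DCs (8.46 and 1.99 CPM). The pDC libraries all lay above the Sirpa+ DC libraries and overlapped each other. The pooled count ratio of PBS pDCs to Sirpa+ DCs was 3.34 with a 95% counting interval of 0.802 to 19.6, so a difference was not detectable at this depth. For YG+ pDCs over Sirpa+ DCs the ratio was 5.03 (1.54 to 26.0), and with no filter the adjusted p was 0.254 (edgeR, 0.136 to 0.672 over the alternatives that tested Ebf1).

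Pax5, the factor that maintains B cell identity and activates Cd79a in B cells, lies on chromosome 4 (44524757 to 44710487, minus strand). It was at 31.9 and 62.5 CPM in PBS pDCs, from 5 and 27 counts, at 64.6 and 53.7 CPM in YG+ pDCs and at 0 in both Sirpa+ DC libraries. PBS pDC replicate 1 was the lowest of the pDC libraries. Pax5 was at least 11.6-fold higher in PBS pDCs than in Sirpa+ DCs (adjusted p = 0.00525, edgeR). It was the member that shared exons with genes of the opposite strand, 5730488B01Rik and Gm12462, over 8.60% of its exon length, and reads from there could belong to either strand, since nothing states how strand was counted. Pou2af1 encodes OCA-B, a co-activator of the octamer factors Pou2f1 and Pou2f2. It lies on chromosome 9 (51213708 to 51240080, plus strand) and was at 57.4 and 92.6 CPM in PBS pDCs, 101 and 102 CPM in YG+ pDCs and 0 in both Sirpa+ DC libraries. The YG+ pDC libraries lay above the PBS pDC libraries, and Pou2af1 was at least 18.4-fold higher in PBS pDCs than in Sirpa+ DCs (adjusted p = 0.00191, edgeR).

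Dntt encodes terminal deoxynucleotidyl transferase, which adds bases at the joints of rearranging antigen receptor genes in immature lymphocytes. It lies on chromosome 19 (41029275 to 41059525, plus strand) and was at 102 and 180.5 CPM in PBS pDCs, 80.1 and 111 CPM in YG+ pDCs and 0 in both Sirpa+ DC libraries. The pDC groups overlapped, and PBS pDC replicate 2 was the highest library. Dntt was at least 34.7-fold higher in PBS pDCs than in Sirpa+ DCs (adjusted p = 0.00104, edgeR), the largest lower bound among the members at 0 in Sirpa+ DCs. Thymocytes also transcribe Dntt, and they are the main cells of the thymus. The summed level of the 14 thymocyte markers was 612 and 650.2 CPM in PBS pDCs, 612 and 737 CPM in YG+ pDCs and 233 and 241 CPM in Sirpa+ DCs. Of these markers, Cd8a, Cd8b1 and Lck were called higher in PBS pDCs. Cd4 was not called (166 and 271 against 118 and 124 CPM, adjusted p = 0.242), nor was the T lineage factor gene Tcf7, which was in every library and lower in PBS pDCs (44.6 and 11.6 against 67.7 and 75.8 CPM, adjusted p = 0.153, edgeR). The other 9 did not pass the filter. Of these, Cd3g and Ptcra had no count in any library, Themis none in any pDC library, and Cd3e 5.37 CPM in YG+ pDC replicate 2 and 0 in the other pDC libraries. Cd3d was at 7.02 CPM or less in the pDC libraries and seen in 3 of them, Bcl11b at 6.94 CPM or less, and Lat reached 20.8 CPM in PBS pDC replicate 2. The part of thymocytes in the level of Dntt was not tested. The recombinase genes Rag1 and Rag2, partners of Dntt in receptor rearrangement, were at 13.9 CPM or less in every pDC library and did not pass the filter.

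Levels of different genes were compared per kilobase of exon (GENCODE M21), on which scale Fcrla was the highest member in both pDC groups, at 141 ± 27.5 CPM per kb in PBS pDCs and 71.6 and 75.9 CPM per kb in the YG+ pDC libraries. The receptor chains followed, with Cd79b at 79.5 ± 7.29 and Cd79a at 71.6 ± 22.6 CPM per kb in PBS pDCs, and their libraries overlapped. Dntt came next in PBS pDCs, at 61.6 ± 24.2 CPM per kb, then Blnk at 45.9 ± 6.14 CPM per kb, and the libraries of Cd79a and Dntt, and of Dntt and Blnk, overlapped. Pou2af1 was at 29.4 ± 9.75 CPM per kb, above Bank1 (5.96 and 20.1 CPM per kb) and Ms4a1 (10.3 and 15.0 CPM per kb), which overlapped. Pax5 (5.33 ± 2.44 CPM per kb) and Ebf1 (1.57 ± 0.55 CPM per kb) were the lowest, in YG+ pDCs too, at 6.68 ± 0.87 and 2.15 ± 0.59 CPM per kb. By group mean, the factors Pax5 and Ebf1 had the least RNA per length in both pDC groups, and Fcrla, Cd79b and Cd79a the most. In PBS pDC replicate 2, however, Dntt (78.7 CPM per kb) lay above Cd79b (74.4 CPM per kb) and Cd79a (55.6 CPM per kb). The length used was that of all annotated exons of a gene together.

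The YG+ pDCs of tumour-bearing mice were then set against the PBS pDCs, and the B-lineage genes were present in both, with Fcrla the furthest apart. None of the 9 tested members was called, and the test called 0% of all 8141 genes at an adjusted p under 0.05 (edgeR). DESeq2 called 0 of the 9 members as well, and 111 of all genes. At an unadjusted p under 0.05, 1 of the 9 members, Fcrla, passed as lower, and 11.4% of all genes passed, 4.69% higher and 6.72% lower. The members' median log2 fold change was -0.16, beside 0.08 over all tested genes, and 3 of the 9 fitted values were above 0.

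Fcrla was 129 ± 5.23 CPM in YG+ pDCs against 247 ± 47.9 CPM in PBS pDCs, a log2 fold change of -0.92 with a 95% interval of -1.78 to -0.07 (unadjusted p = 0.0369, adjusted p = 0.404, edgeR). Its adjusted p over the alternatives ran from 0.0910 to 0.999, so it failed the correction in each, while the log2 fold change stayed between -1.09 and -0.74. Ms4a1 had the largest positive value, 0.57 (95% interval -0.40 to 1.54, adjusted p = 0.667), and Dntt was at -0.61 (-1.61 to 0.39, adjusted p = 0.653). The value of Dntt rested on PBS pDC replicate 2 and was -0.064 without it. The intervals of Cd79a (-1.12 to 0.80), Cd79b (-1.09 to 0.66) and Blnk (-1.07 to 0.84) were about as wide, and those of Bank1 (-1.60 to 0.83) and Pax5 (-0.96 to 1.43) were wider. Pou2af1 was at 0.38 (-0.62 to 1.38), at 0.12 without PBS pDC replicate 1 and at 0.86 without PBS pDC replicate 2. A missed threshold therefore does not show equal levels, since falls of about 1 on the log2 scale lie within the intervals of Cd79a, Cd79b and Blnk. Both YG+ pDC libraries lay above both PBS pDC libraries for Ms4a1 and Pou2af1, and below for Fcrla and Cd79b, that is 2 of 10 members each way, where 26.5% and 19.3% of all tested genes did so. Without PBS pDC replicate 1, the library that stood apart, 0 members were called, and the value of Cd79a went to 0.15 and that of Pax5 to -0.082.

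**Figure D2:**
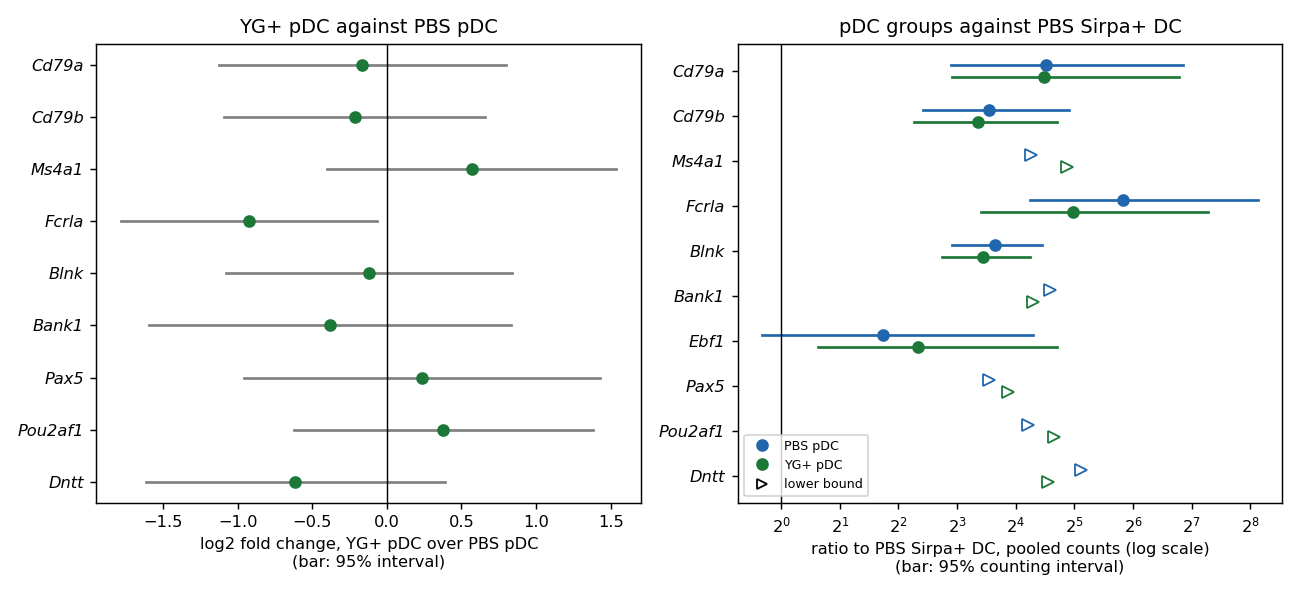
Left, log2 fold change of YG+ over PBS pDCs for the 9 tested members, with 95% intervals from edgeR: all but the interval of Fcrla (-1.78 to -0.07) include 0. Right, ratio of each pDC group to the Sirpa+ DCs on a log axis, as pooled counts with 95% counting intervals, or as an open triangle at the lower bound where the Sirpa+ DCs had 0 counts; the interval of Ebf1 in PBS pDCs alone includes a ratio of 1.

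Summed levels of markers of other myeloid cells were higher alongside in this comparison. The summed level of 7 macrophage genes was 1083 and 444 CPM in the YG+ pDC libraries and 236 and 183 CPM in the PBS pDC libraries, against 2188 and 3453 CPM in Sirpa+ DCs. Of these 7, none was called and 6 had an unadjusted p under 0.05 as higher (edgeR), where 4.69% of all tested genes did. Csf1r was at 142 ± 59.3 against 18.5 ± 9.86 CPM. The summed level of 8 markers of Sirpa+ DCs was 3311 and 2861 CPM in the YG+ pDC libraries and 1799 and 2275 CPM in the PBS pDC libraries, against 9605 and 11203 CPM in Sirpa+ DCs. None of these markers was called. A fitted value above 0 was found for 7, and Fscn1 alone had an unadjusted p under 0.05 (edgeR). Fscn1 was at 663 ± 128 against 151 ± 30.1 CPM (unadjusted p = 0.000602, adjusted p = 0.254, edgeR). After Fscn1, H2-Eb1 had the largest mean difference in CPM (1603 ± 194 against 1183 ± 176 CPM). Itgax was at 221 ± 54.3 against 213 ± 75.4 CPM, and Clec10a had the lower mean in YG+ pDCs (114 ± 6.03 against 137 ± 48.9 CPM). The part of both lists in the member values was not tested. The summed level of the 10 members was 1021 and 1074 CPM in the YG+ pDC libraries and 1097 and 1291 CPM in the PBS pDC libraries. It was lower in both YG+ pDC libraries than in either PBS pDC library, by a gap smaller than the difference within either group.

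The YG+ pDCs also differed from the Sirpa+ DCs of PBS mice. These tests share the Sirpa+ DC libraries with those of the PBS pDCs, so they are given side by side and not as a second finding. edgeR called 9 of the 9 tested members higher, where it called 3.07% of all genes higher and 4.09% lower. Members at 0 in Sirpa+ DCs passed the filter through the pDC libraries alone. This count, and the overlap and median below, therefore describe the members and are not independent support. The libraries of all 10 members lay higher in YG+ pDCs with no overlap, as those of 32.8% of the tested genes did. Pooled counts were 31.5 times those of Sirpa+ DCs for Fcrla (95% counting interval 10.6 to 155) and 22.5 times for Cd79a (7.49 to 110.5). The log2 fold change was 3.33 (SE 0.52) for Cd79b and 3.34 (SE 0.53) for Blnk. Ms4a1 was at least 29.5-fold higher, Pou2af1 25.0-fold, Dntt 23.5-fold, Bank1 19.7-fold and Pax5 14.5-fold, all lower bounds. The median log2 fold change was 7.69, or 4.37 with those members at their bound, beside 0.04 over all genes. Leaving out Sirpa+ DC replicate 2 left 4 calls and lost Cd79a, Cd79b, Bank1, Blnk and Pax5, and leaving out replicate 1 left 6 and lost Cd79a, Cd79b and Bank1, with adjusted p from 0.0583 to 0.0881 (edgeR).

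Other genes of the B cell pathway were called less often than the members. The members and lists were chosen with earlier results of these data known, so this contrast describes them and is not a test. Tested list genes at 0 in Sirpa+ DCs, such as Blk and Ly6d, passed the filter through the pDC libraries alone. Their calls, and the counts that include them, are therefore not independent support. Of 43 listed genes (receptor co-receptors, signalling proteins, transcription factors and genes of early B cells), 40 were in the files and 32 passed the filter. In PBS pDCs against Sirpa+ DCs, 7 of the 32 were called higher, 1 lower and 24 neither, with a median log2 fold change of 0.74. Of all tested genes, 4.54% were called higher and 6.89% lower. The Src-family kinase gene Blk was at 44.6 and 85.6 CPM in PBS pDCs, 70.2 and 64.4 CPM in YG+ pDCs and 0 in both Sirpa+ DC libraries, at least 16.02-fold higher in PBS pDCs (adjusted p = 0.00296, edgeR). Most of the receptor machinery passed no test. The inhibitory receptor gene Fcgr2b, lower in PBS pDCs, was not called (128 ± 44.0 against 334 ± 29.5 CPM, adjusted p = 0.0609, edgeR). The signalling genes Pik3ap1 (391 ± 121 against 199 ± 54.1 CPM, adjusted p = 0.200) and Ptpn6 (651 ± 362 against 318 ± 103 CPM, adjusted p = 0.230, edgeR) had higher means in PBS pDCs. They were not called either, which does not show equal levels. Nor were Syk, Btk and Plcg2, the kinases and phospholipase around Blnk, which are named for that role after their values were seen.

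Among the transcription factors, Ikzf3 (Aiolos, 134 ± 9.61 against 7.22 ± 1.75 CPM), Spib (552 ± 276 against 50.8 ± 24.0 CPM) and Irf8 (1438 ± 338 against 299 ± 51.3 CPM) were called higher in PBS pDCs, and Spib and Irf8 are also on the pDC marker list. Spi1 (PU.1, deposited as Sfpi1) was called lower, at 6.38 and 34.7 against 195 and 247 CPM (adjusted p = 0.00628, edgeR). Of the early B cell genes, Ly6d was called higher, at least 105-fold (429 ± 115 CPM against 0), and it too is on the pDC list. Of the surrogate light chain genes of pre-B cells, Vpreb1 and Vpreb2 had no count in any library and Igll1 none in any pDC library. Vpreb3 was seen in PBS pDC replicate 1 alone among the pDC libraries, with 7 counts (44.6 CPM). In YG+ pDCs against PBS pDCs 0 of the 32 genes were called (edgeR and DESeq2), 0 had an unadjusted p under 0.05, and the median was 0.0017. Against Sirpa+ DCs, YG+ pDCs had 8 higher and 1 lower, with Bcl11a added to the calls. Calls of these weaker genes depended on single libraries: without PBS pDC replicate 1 there were 15 calls in PBS pDCs against Sirpa+ DCs, and 5 without either Sirpa+ DC library.

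**Figure D3:**
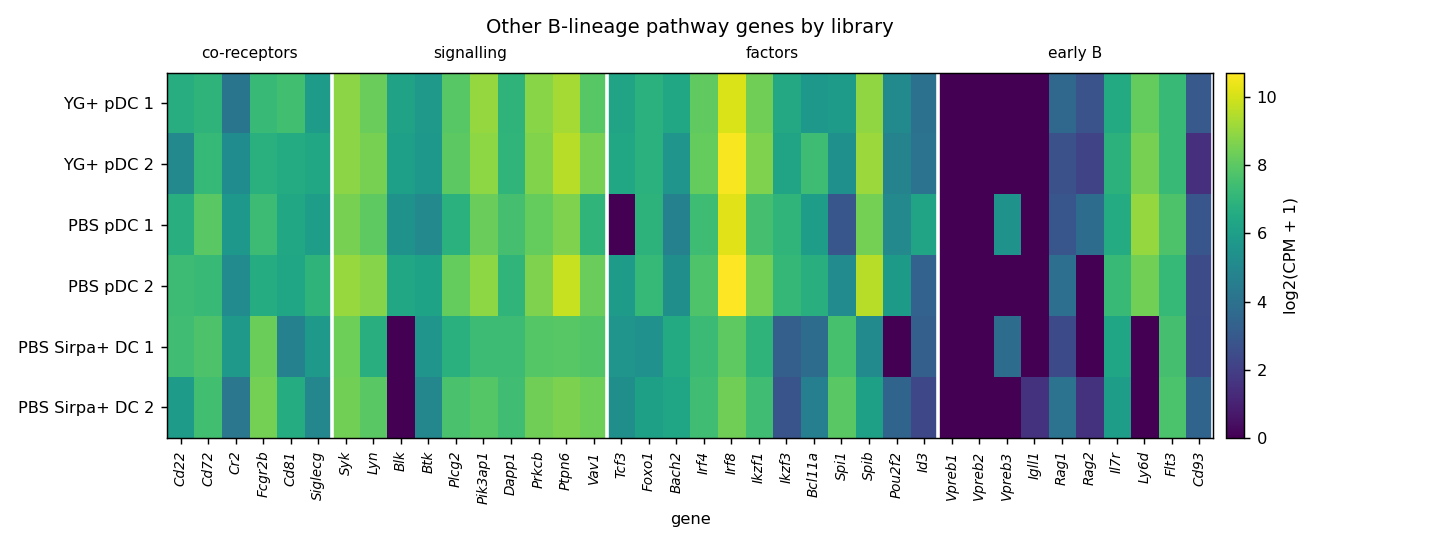
Levels of 38 other B cell pathway genes in the 6 libraries, as log2(CPM + 1), grouped as co-receptors, signalling proteins, transcription factors and early B cell genes. Blk and Ly6d go from 0 in both Sirpa+ DC libraries to clear levels in all pDC libraries, Spi1 goes the other way, and Vpreb1 and Vpreb2 are dark throughout.

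Markers of mature B cells were, for the most part, higher in pDCs than in Sirpa+ DCs, as the members were. Of all tested genes, 4.54% were called higher in PBS pDCs. Of the 8 in the files, 5 were called higher in PBS pDCs than in Sirpa+ DCs, among them the IgE receptor gene Fcer2a (34.2 ± 5.79 against 2.99 ± 4.23 CPM), Fcmr (deposited as Faim3, at least 10.3-fold), the BAFF receptor gene Tnfrsf13c (58.5 ± 28.6 against 0.997 ± 1.41 CPM) and Cd37 (292 ± 1.30 against 50.7 ± 29.8 CPM). The list's median log2 fold change was 2.72, and Cr2 (51.0 and 34.7 against 55.0 and 17.9 CPM) and Cd22 (108 and 160 against 169 and 57.8 CPM) were not called. In YG+ against PBS pDCs none of the 8 was called. Fcer2a alone had an unadjusted p under 0.05, as higher in YG+ pDCs (82.0 ± 7.17 CPM, unadjusted p = 0.0409, adjusted p = 0.414, edgeR). The summed level of the 8 markers was 739.9 and 889 CPM in PBS pDCs, 876 and 737 CPM in YG+ pDCs and 288 and 167 CPM in Sirpa+ DCs. None of the 8 was at 0 in a pDC group. Ighm, Ighd and Igkc were not among the gene symbols counted, so their levels could not be read. The part of B cells in the B220+ gate in the member values was not tested. Of 6 plasma cell markers, Xbp1 and Mzb1 were higher and Prdm1 lower in PBS pDCs, and Tnfrsf17 had no count in any library. The tested markers at 0 in Sirpa+ DCs, Fcmr and Mzb1 among them, passed the filter through the pDC libraries alone. Their calls, and the counts that include them, are therefore not independent support.

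**Figure D4:**
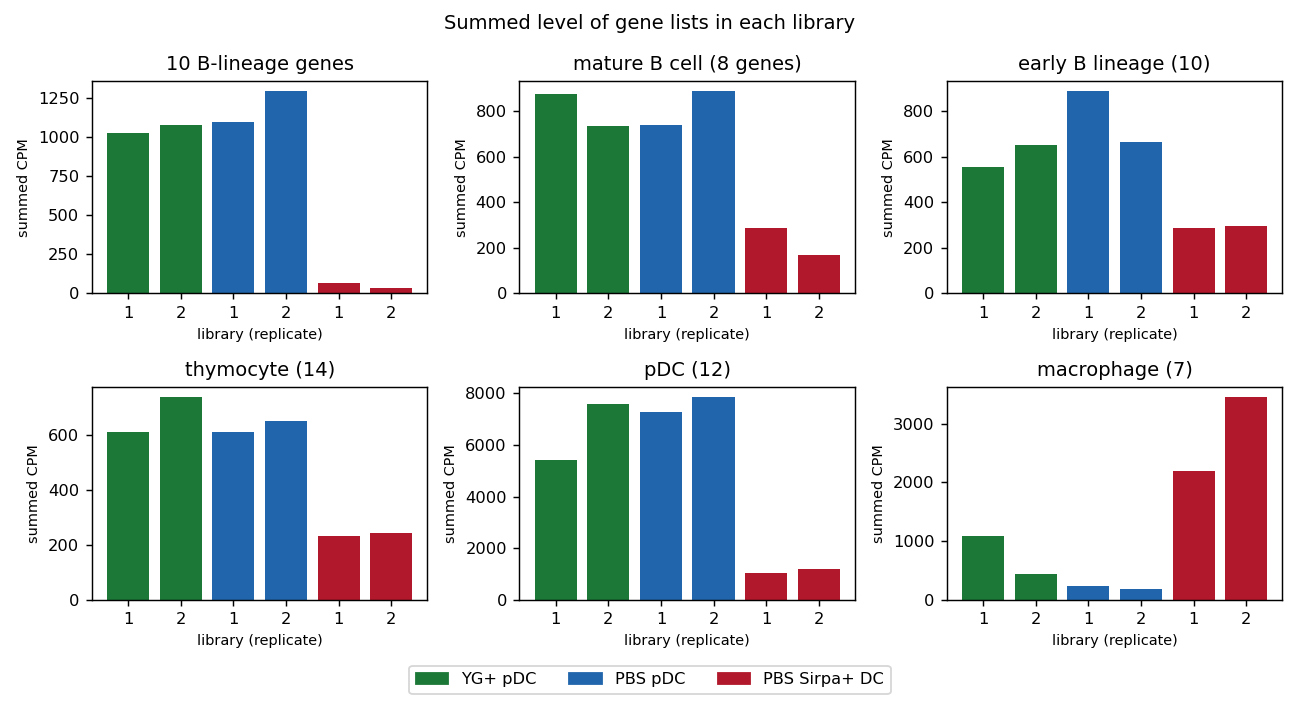
Summed CPM per library (bars from 0, 1 bar per library, replicate number below) of the 10 members and of 5 marker lists. The members, at 1021 to 1291 CPM in pDCs and 35.9 and 63.5 CPM in Sirpa+ DCs, and the mature B cell, early B cell, thymocyte and pDC lists are higher in every pDC library than in either Sirpa+ DC library, though without Ly6d, which is also on the pDC list, the early B cell sum is 265 and 279 CPM in the YG+ pDC libraries, below both Sirpa+ DC libraries at 288 and 295 CPM, and 376 and 315 CPM in the PBS pDC libraries, while the macrophage list is highest in Sirpa+ DCs and higher in YG+ than in PBS pDCs.

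The profiles of the members across the 6 libraries differed by how the pDC libraries were ordered. As a measure of unlikeness, each gene's CPM was divided by its sum over the libraries, and the summed absolute differences between 2 genes, multiplied by 0.5, gave a distance from 0% (same profile) to 100%. This is a description over 6 libraries that share depth and the low values of the Sirpa+ DCs. Ms4a1, Pou2af1 and Pax5 were closest among the members, with distances of 2.98% (Ms4a1 and Pou2af1), 4.91% (Pou2af1 and Pax5) and 5.998% (Ms4a1 and Pax5). Ms4a1 and Fcrla were the most distant pair, at 26.6%. Among 7604 other genes, Blk lay at 4.80% from Pax5, and Fcmr was nearest to Bank1 (3.92%). Blnk had the pDC genes Ccr9 (2.84%) and Runx2 (3.28%) as its nearest neighbours, where the median distance of all candidates to Blnk was 31.3%. Fcrla was closest to the sugar transporter gene Slc5a10 (2.91%) and to Lck (4.34%), a kinase gene of T cells, Ms4a1 to the cytokine receptor gene Il9r (2.98%), Pou2af1 to Ablim1 (1.96%), Cd79b to the cathepsin gene Ctsl (2.32%), Cd79a to Pced1b (4.65%) and Dntt to Ralgps1 (5.11%).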

How the data were processed

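RNA was measured in 6 libraries of thymic DCs sorted on a BD FACSAria III, 2 per group. TRIzol extraction and an Ovation SoLo mouse RNA-seq kit, with 5 ng of RNA as input, were used per the labels' protocols, and all samples carry the same batch number. The deposited files hold the authors' raw read counts, whole numbers for each gene symbol. The submitters' processing notes name bcl2fastq 2.17 and mm10, and the sources used here give no aligner, counter, annotation or strand setting. Summary lines that name no gene held 97.7% to 99.5% of all records and were left out.

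Of 23420 genes, the 8141 that passed edgeR's filterByExpr were scaled by TMM factors and tested with edgeR 4.0.16 (glmQLFit, glmQLFTest, R 4.3.3). One model of group means, without a block, was fitted to all 6 libraries. Calls used a Benjamini-Hochberg adjusted p under 0.05 over all tested genes, and the biological coefficient of variation was 33.0%. CPM are counts over the TMM-scaled total of tested genes. Lower bounds of fold set 3 counts over the group in place of 0. They divide the mean of the other group by that limit, so its spread is not covered. Counting intervals are exact at 95% and cover counting error only. Coordinates and exon lengths came from GENCODE M21 (GRCm38). Chi-square per degree of freedom between the libraries of a group was 2.76, 11.9 and 5.66, so none was counted as a duplicate.

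The members and gene lists were chosen with earlier results of these data known. All members are described, and of each pathway list up to 4 genes per comparison were named, by smallest p, with marker genes named where they define a cell type. In 4 cases a list gene was matched by its older symbol, and 3 list genes were not among the gene symbols counted. Alternatives were other scalings, other filters, DESeq2 1.42.0, a fit restricted to the 4 libraries of a comparison, a block for the replicate number and the omission of each library in turn. When a left-out library leaves its group with 1, that sample is assumed to vary like the other groups. Some genes of the pathway and marker lists are counted but not reported here by name.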

Additional observations from a re-analysis of the deposited data

How the results depend on the processing

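For the 9 tested members, 121 of 125 recomputed values of PBS pDCs against Sirpa+ DCs kept direction and call, and 4 lost the call, all without Sirpa+ DC replicate 2. For YG+ pDCs against Sirpa+ DCs this was 118 of 126, and 8 lost the call without a Sirpa+ DC library. For YG+ against PBS pDCs, where none was called, 120 of 126 kept direction. The exceptions were Cd79a at 0.04 without YG+ pDC replicate 2 and 0.15 without PBS pDC replicate 1, Bank1 at 0.89 without PBS pDC replicate 2, Blnk at 0.097 without YG+ pDC replicate 1 and 0.069 without PBS pDC replicate 2, and Pax5 at -0.082 without PBS pDC replicate 1 (log2 fold changes). Over the libraries left out, these ranged from -0.46 to 0.15 for Cd79a, -0.91 to 0.89 for Bank1, -0.31 to 0.097 for Blnk and -0.082 to 0.93 for Pax5. In the fit of the 4 libraries compared, Pax5 did not pass the filter in PBS pDCs against Sirpa+ DCs. With each library left out in turn, the members called ranged from 5 to 9 in PBS pDCs against Sirpa+ DCs, stayed at 0 in YG+ against PBS pDCs, and ranged from 4 to 9 in YG+ pDCs against Sirpa+ DCs. The B pathway genes ranged from 5 to 15, 0 to 1 (Tcf3, without PBS pDC replicate 2) and 2 to 13, and all genes from 214 to 1297, 0 to 870 and 69 to 1487.

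Among all genes, the fit of the 4 libraries compared called 580 in PBS pDCs against Sirpa+ DCs and 1480 in YG+ pDCs against Sirpa+ DCs, beside 931 and 583. In YG+ against PBS pDCs, no filter gave 141 calls and DESeq2 111, beside 0, and no filter gave 894 in YG+ pDCs against Sirpa+ DCs. The causes were not tested. The sample numbers were not established as pairs. Gene-wise differences between the numbers correlated at -0.121 for YG+ and PBS pDCs, -0.099 for YG+ pDCs and Sirpa+ DCs and 0.298 for PBS pDCs and Sirpa+ DCs. With the replicate block, 9, 0 and 9 members were called in the comparisons in the same order, 9, 0 and 9 B pathway genes, and 942, 0 and 635 of all genes. Other scalings moved the median of all genes to 0.16 at most. Depth limits Ebf1 and any member in PBS pDC replicate 1, where 3 counts are 19.1 CPM.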
